A study of Sus scrofa with 2 samples.

Results

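Myeloid cells that carry none of the tissue-macrophage receptors LYVE1, MRC1 or CD209 were gathered from the endometrium, the inner lining of the uterus, of 2 Yorkshire sows. The EL library came from a sow with embryo loss, which had aborted before and then failed to conceive after 3 consecutive artificial inseminations; its reproductive stage is not given in the labels. The EIS library came from a sow with successful implantation, sampled at day 30 after insemination. Both sows were 3 years old, both samples were whole endometrium dissociated with enzymes and treated to lyse red cells, and each library is 1 animal, so animal, stage and outcome cannot be told apart and no comparison between the libraries carries a test. A droplet barcode stands for a cell, and a unique molecular identifier (UMI) for a captured RNA molecule. A barcode was a member when it held at least 500 UMIs and 300 genes, at least 3 summed UMIs of 9 listed myeloid genes, and 0 UMIs of LYVE1, MRC1 and CD209 together. Of the 9 genes, AIF1, SPI1, C1QA and C1QB had a row under their symbol and were summed; CSF1R, CD68, MPEG1, CYBB and C1QC were not used here. The rule gathered 705 of 19465 kept barcodes, 147 of 10797 in EL and 558 of 8668 in EIS.

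Macrophages, monocytes and dendritic cells survey the endometrium, clear dying cells and secreted debris, present antigen through MHC class II and release the chemokines and cytokines that recruit other leukocytes. In pregnancy, uterine macrophages take part in the remodelling of vessels and matrix around the conceptus. Complement C1q is made largely by tissue macrophages, whereas S100A4, a calcium-binding protein of motile cells, is a common marker of monocyte-derived cells; TYROBP and FCER1G are the signalling adaptors through which many myeloid receptors act.

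The 2 libraries held 43302286 UMIs in EL and 36069473 in EIS, with a median of 2301 UMIs per kept barcode in EL and 2245 in EIS. Gated barcodes were deeper, with a median of 4569 UMIs in EL and 3697.5 in EIS. The libraries shared 27 barcodes, of which 0 were gated in EL and 1 in EIS. Intervals are exact 95% intervals and cover counting error only, since each group is 1 library.

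The label was checked against other markers, and part of the gated barcodes lacked them. AIF1, an actin-binding protein of macrophages, was also found in ciliated epithelial barcodes: 32.0% of 1496 ciliated barcodes in EL (interval 29.6 to 34.4) and 35.8% of 358 in EIS (30.8 to 41.0) carried it, at median depths of 5991.5 and 7029 UMIs. Of these ciliated barcodes, 39 in EL and 17 in EIS passed the gate. C1QA or C1QB was present in 0.869% of the ciliated barcodes in EL and 12.6% in EIS, so in EIS low counts of C1q genes also appeared in barcodes of another type. Gated barcodes were therefore divided by the adaptors, which the rule did not use: those with at least 2 UMIs of TYROBP and FCER1G together, making up at least 0.1% of the barcode's UMIs, are called adaptor-positive below. This limit was chosen after the data were seen. TYROBP or FCER1G was found in 1.80% of ciliated barcodes in EL and 8.94% in EIS.

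Adaptor-positive barcodes numbered 59 in EL, 40.1% of the gated ones (32.1 to 48.5), and 193 in EIS, 34.6% of the gated ones (30.6 to 38.7). Just inside the rule, at 3 summed UMIs, 4 of 50 EL barcodes and 17 of 186 EIS barcodes were adaptor-positive. Just outside it, at 2 summed UMIs, the numbers were 6 of 182 in EL and 34 of 447 in EIS. At 1 summed UMI they were 8 of 804 in EL and 77 of 1333 in EIS. At 0 they were 35 of 9620 in EL and 144 of 5164 in EIS. Barcodes outside the rule and without the 3 receptors thus also reached the adaptor limit, and their cell type was not tested. At 10 or more summed UMIs, 43 of 55 EL barcodes and 138 of 169 EIS barcodes were adaptor-positive. The adaptor limit was not a complete census of C1q-rich barcodes. At least 3 UMIs of C1QA and C1QB were present in 36 of the 88 remaining EL barcodes, 40.9%, at a median depth of 1440.5 UMIs, and in 181 of the 365 remaining EIS barcodes, 49.6%, at 3245 UMIs. At 10 or more UMIs the numbers were 10 in EL and 10 in EIS. Over all gated barcodes, 76 of 147 in EL, 51.7%, and 285 of 558 in EIS, 51.1%, held at least 3, so the adaptor-positive barcodes are not all the gated barcodes with macrophage genes.

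**Figure D1:**
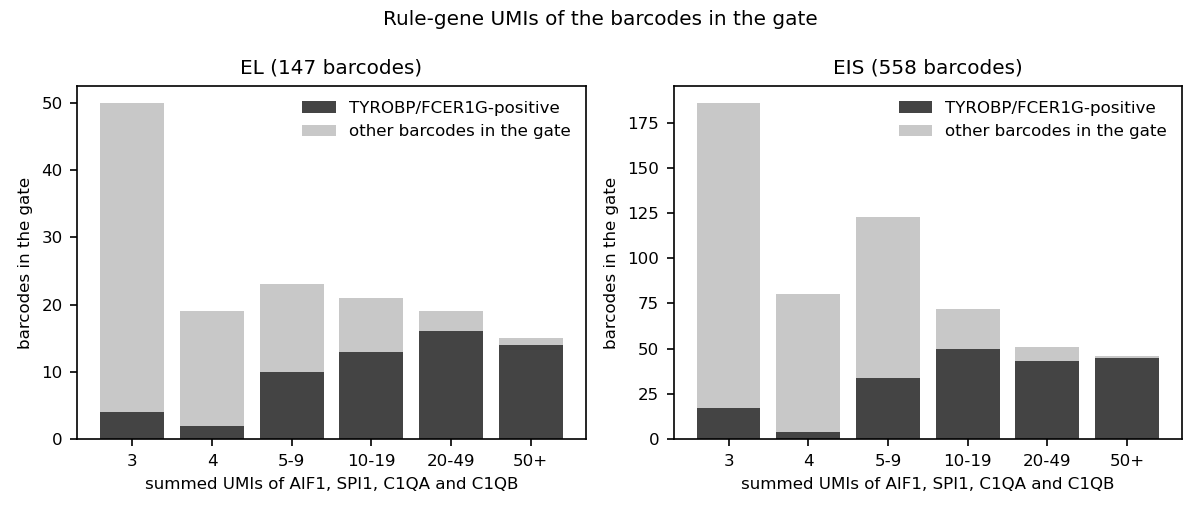
Number of gated barcodes (y axis) by their summed UMIs of AIF1, SPI1, C1QA and C1QB (x axis, in bins), EL left and EIS right; dark bars are adaptor-positive barcodes and light bars the others. At 3 UMIs, 4 EL and 17 EIS barcodes were adaptor-positive, against 46 and 169 that were not; at 50 or more, 14 EL and 45 EIS barcodes were, against 1 in each library that was not.

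The adaptor-positive barcodes of both libraries carried leukocyte genes that the rule had not used. Levels are CPM, the UMIs of a gene summed over the barcodes of a set and scaled to a set total of 1000000. PTPRC, the pan-leukocyte phosphatase CD45, stood at 569 CPM in EL (41 of 59 barcodes), against 718 in EIS (150 of 193). In the gated barcodes that were not adaptor-positive it stood at 35.9 CPM in EL and 56.7 in EIS. SLA-DRA1, the alpha chain of the pig MHC class II molecule DR, stood at 6566 CPM in EL (55 of 59) compared with 6366 in EIS (174 of 193), against 486 and 345 CPM in the other gated barcodes of EL and EIS. Per 10000 UMIs of a barcode, SLA-DRA1 ran from 0 over a median of 57.0 to 280.1 in EL, and from 0 over 60.8 to 265.5 in EIS, so the libraries overlapped almost wholly. FCGR3A, the low-affinity IgG receptor CD16, stood at 2471 CPM in EL, against 3153 in EIS, and CTSS, the cathepsin that trims the class II invariant chain, at 1427 and 1527 CPM. Among other genes well above the remaining kept barcodes, ALOX5AP, the activating protein of 5-lipoxygenase, stood at 372 CPM in EL and 474 in EIS, GIMAP4 at 349 and 321 CPM, PHACTR1 at 459 and 415 CPM and SLA-DMB at 425 and 406 CPM. BCL2A1, an anti-apoptotic relative of BCL2, stood at 509 CPM in EL and 1067 in EIS, a ratio of 0.477 (0.395 to 0.572).

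The gene that names the label first, CSF1R, the receptor of macrophage colony-stimulating factor, was not used here. Of the others, AIF1 stood at 1788 CPM in adaptor-positive EL barcodes and 1970 CPM in EIS, found in 52 of 59 and 181 of 193. C1QA stood at 1689 CPM in EL and 1694 in EIS, and C1QB, the second chain of C1q, at 3655 CPM in EL compared with 3103 in EIS. These levels were fixed in part by the rule and are a description. S100A4, which the rule did not use, stood at 903 CPM in EL, against 551 in EIS but was present in few barcodes, 11 of 59 in EL and 39 of 193 in EIS, with up to 99 UMIs in 1 EL barcode and 79 in 1 EIS barcode. Its ratio of EL over EIS was 1.64 (1.39 to 1.92) with all barcodes and 1.05 (0.863 to 1.27) without 2 EL barcodes described below.

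C1q and S100A4 were mostly found in different adaptor-positive barcodes in both sows. At least 3 UMIs of C1QA and C1QB were present in 40 of 59 EL barcodes, 67.8% (54.4 to 79.4), and in 104 of 193 EIS barcodes, 53.9% (46.6 to 61.1). S100A4 was present in 2 of the 40 C1q-rich EL barcodes and in 9 of the 19 others; in EIS it was present in 10 of the 104 C1q-rich barcodes and in 29 of the 89 others. Barcodes with C1q under 3 UMIs and no S100A4 numbered 10 of 59 in EL, 16.9%, and 60 of 193 in EIS, 31.1%, so the 2 genes do not account for every member.

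**Figure D2:**
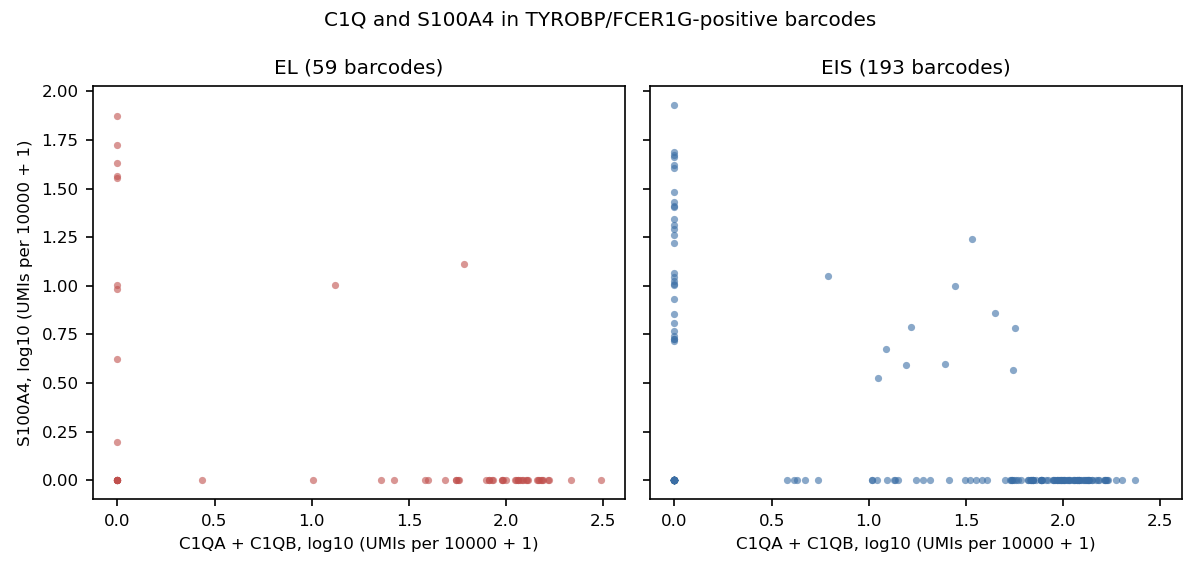
Each point is 1 adaptor-positive gated barcode, EL left and EIS right; the x axis is C1QA plus C1QB and the y axis S100A4, both as log10 of UMIs per 10000 plus 1. Most points lie along 1 of the axes: 2 of 40 C1q-rich EL barcodes and 10 of 104 C1q-rich EIS barcodes also held S100A4.

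When the gated barcodes were grouped by expression within each library, the grouping gave 5 groups in EL and 11 in EIS; their leading genes describe them and are not results. EL group 1, with 30 adaptor-positive barcodes of 34, was led by the chemokines CCL4 and CCL8, the lipid carrier APOE and the complement protein C3, and had C1QB at 5907 CPM and S100A4 at 36 CPM. EIS group 3, with 50 of 58, was likewise led by CCL8, C3 and CXCL10, and had C1QB at 6478 CPM, CCL8 at 9582 CPM and S100A4 at 4 CPM. EL group 2, with 22 of 25, was led by ACP5 and S100A4, followed by the galectin LGALS1, PLAC8 and CD1.1, a pig CD1 lipid-presenting molecule; S100A4 stood at 1868 CPM there and C1QB at 1540 CPM. EIS group 1, in which 45 of 45 were adaptor-positive, had S100A4 at 1808 CPM, LGALS1 at 3503 CPM and C1QB at 177 CPM, and was also led by IL1B, AREG, G0S2 and SDS. EIS group 2, with 52 of 53, was led by the adhesion receptors ADGRE5 and ADGRG1 and the phagosomal metal transporter SLC11A1; it held both C1QB at 1614 CPM and FCER1G at 4052 CPM, with S100A4 at 43 CPM and CCL8 at 16 CPM. EIS group 4, with 9 of 11, was led by the mitotic genes CENPF and UBE2C and carried C1QB at 6034 CPM.

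The other groups were mostly not adaptor-positive and were mostly led by genes of other cells. In EL they were group 3 (6 of 44 adaptor-positive), led by CCK and AQP3, group 4 (1 of 15), led by the retinoic acid hydroxylase CYP26A1 and by NMB, and group 5 (0 of 29), led by ciliary genes such as CCDC39 and TPPP3. In EIS, group 5 (24 of 103) was led by VPREB1, the protease inhibitor SLPI and PLAC8, with CCDC50 also among its leading genes. SLPI stood at 232212 CPM there. EIS group 6 (11 of 72) was led by APOD and the matrix proteoglycan DCN, group 8 (1 of 88) by CHGA and CTSL, and group 10 (0 of 29) by AKR1C3, FABP5 and TM4SF1. EIS group 11 (0 of 38) passed the gate through AIF1 at 717 CPM, with C1QA at 10 CPM and C1QB at 2 CPM, and was led by MGP, DPPA5 and HAVCR1. These groups hold most of the gated barcodes, and the levels below are those of the adaptor-positive barcodes.

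**Figure D3:**
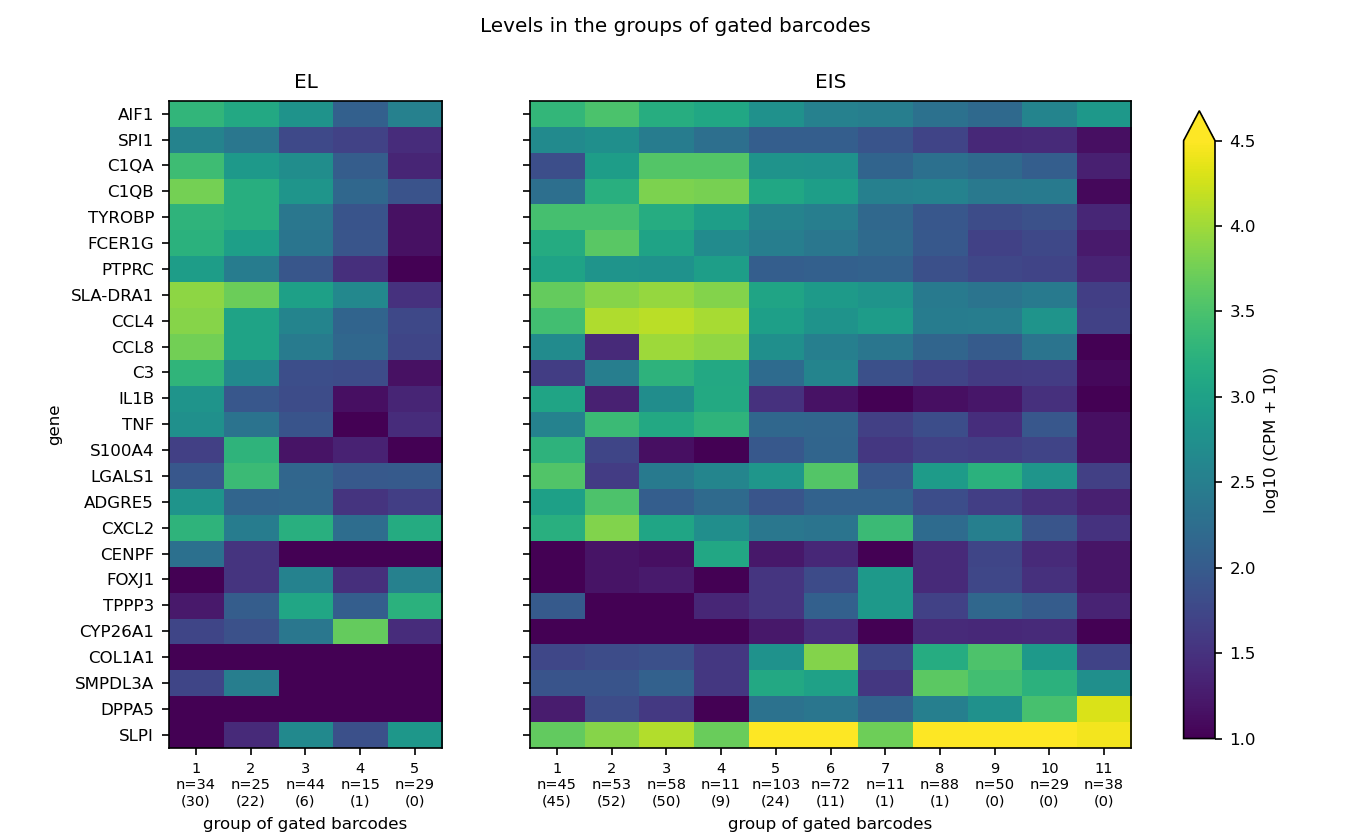
Heat map of levels (log10 of CPM plus 10) of selected genes, one gene per line, in the groups of gated barcodes, the 5 EL groups left and the 11 EIS groups right; the number of barcodes and, in parentheses, of adaptor-positive barcodes stands with each group, and the colour scale ends at 4.5. C1QB was high in EL group 1 (5907 CPM) and EIS group 3 (6478 CPM), and S100A4 in EL group 2 (1868 CPM) and EIS group 1 (1808 CPM).

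The share of these cells was lower in EL. Gated barcodes made up 1.36% of kept barcodes in EL (1.15 to 1.60) and 6.44% in EIS (5.93 to 6.97), a ratio of 0.211 (0.175 to 0.254). The ratio was 0.413 (0.291 to 0.581) when barcodes with at least 3 UMIs of a marker list of other cells were left out. Those lists included PLVAP and SMPDL3A, leading genes of the mostly adaptor-positive EL groups 1 and 2. That setting may therefore also leave out myeloid barcodes. Adaptor-positive gated barcodes made up 0.546% in EL and 2.23% in EIS, a ratio of 0.245 (0.180 to 0.330). With each barcode thinned to 1000 UMIs, 54 of 8104 EL barcodes (0.666%) and 229 of 6750 EIS barcodes (3.39%) passed the gate, 2693 shallower EL barcodes and 1918 shallower EIS barcodes being left out. How evenly the digestion released myeloid cells in the 2 tissues was not tested.

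The shares that carried LYVE1, a hyaluronan receptor, MRC1, the mannose receptor, or CD209, a C-type lectin, are a description, since these genes made the rule. Of all barcodes with 3 or more summed myeloid UMIs, 5 of 152 carried any of the 3 genes in EL, 3.29% (1.08 to 7.51), and 334 of 892 in EIS, 37.4% (34.3 to 40.7). Among adaptor-positive barcodes alone, 5 of 64 carried 1 of them in EL, 7.81% (2.59 to 17.3), and 78 of 271 in EIS, 28.8% (23.5 to 34.6). After thinning, the shares were 5.26% in EL and 32.2% in EIS. In EIS the genes were also widespread elsewhere: LYVE1 was found in 0.347% of the kept barcodes outside the gate in EL and 10.5% in EIS, and MRC1 in 0.150% and 6.08%, and 78 of the 334 EIS barcodes with a receptor were adaptor-positive. No difference between the libraries is read from the shares.

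Genes of other cells were present in the adaptor-positive barcodes; the uterine secretion and stromal lists were higher in EIS, and the epithelial, T or NK cell and plasma cell lists higher in EL. The 5 uterine secretion genes summed to 6312 CPM in EL and 28138 in EIS, with at least 3 UMIs in 4 of 59 EL barcodes and 193 of 193 EIS barcodes. Most of the EL sum was ACP5, with 1578 UMIs, of which 1164 and 405 lay in 2 barcodes described below. SLPI stood at 3.8 CPM in EL, where 1 barcode held it, and at 17288 CPM in EIS. The stromal list summed to 7.59 CPM in EL, with COL1A1, COL1A2 and PDGFRA at 0, and to 2403 CPM in EIS; 66% of the EIS UMIs of COL1A1 and 85% of those of DCN came from 1 barcode each. The plasma cell list summed to 114 CPM in EL and 39.7 in EIS, mostly from DERL3, with 23 UMIs in EL and 20 in EIS. The T or NK cell list summed to 600 CPM in EL compared with 474 in EIS, with CD3G, CD96 and KLRB1 at 0 in both. Epithelial genes summed to 220 CPM in EL, against 134 in EIS, ciliated genes to 72.1 and 83.1, trophoblast genes to 167 and 187, and vascular endothelial genes to 429 and 508 CPM in EL and EIS, while B cell genes were at 0 in EL and 4.82 CPM in EIS. Among myeloid lists, the 9 of 13 monocyte genes with a row summed to 3112 CPM in EL and 4076 in EIS. Most of that was FCGR3A, at 2471 CPM in EL and 3153 in EIS. The 6 of 14 resident macrophage genes with a row summed to 1317 CPM in EL and 1306 in EIS. Most of that was APOE, with 302 UMIs in EL and 1004 in EIS. Both sums thus mostly follow 1 gene each and do not compare the whole lists. Neutrophil genes summed to 197 CPM in EL compared with 272 in EIS, with MMP8 and LTF at 0 in both, and plasmacytoid dendritic genes to 436 and 371 CPM. A doublet score marked 0 of the 59 EL barcodes and 29 of the 193 EIS barcodes; with marked barcodes removed from the gate, 424 genes were at least 2-fold higher in EL and 471 at least 2-fold lower. Without barcodes that held at least 3 UMIs of a list of other cells, 28 of 59 EL and 80 of 193 EIS barcodes remained. The uterine secretion and ciliated lists were not used for that setting. The levels below are over all 59 and 193 barcodes. The part of free RNA in the differences below was not tested, beyond the values given beside them.

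Between the libraries, most genes of the adaptor-positive barcodes lay within 2-fold. Of 6339 genes with at least 20 summed UMIs, 429 (6.77%) were at least 2-fold higher in EL and 542 (8.55%) at least 2-fold lower, with a median log2 ratio of 0.07. The interval of the ratio excluded 1 for 318 of the 429 and 321 of the 542. With TMM factors, which moved the log2 ratios down by 0.213 and the median of all genes to -0.14, the counts were 235 higher and 771 lower, so a ratio within that shift has no settled direction. The member counts of the lists below stand against the shares of 6.77% and 8.55%. A list with 1 member past 2-fold is not read as a result about that list.

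**Figure D4:**
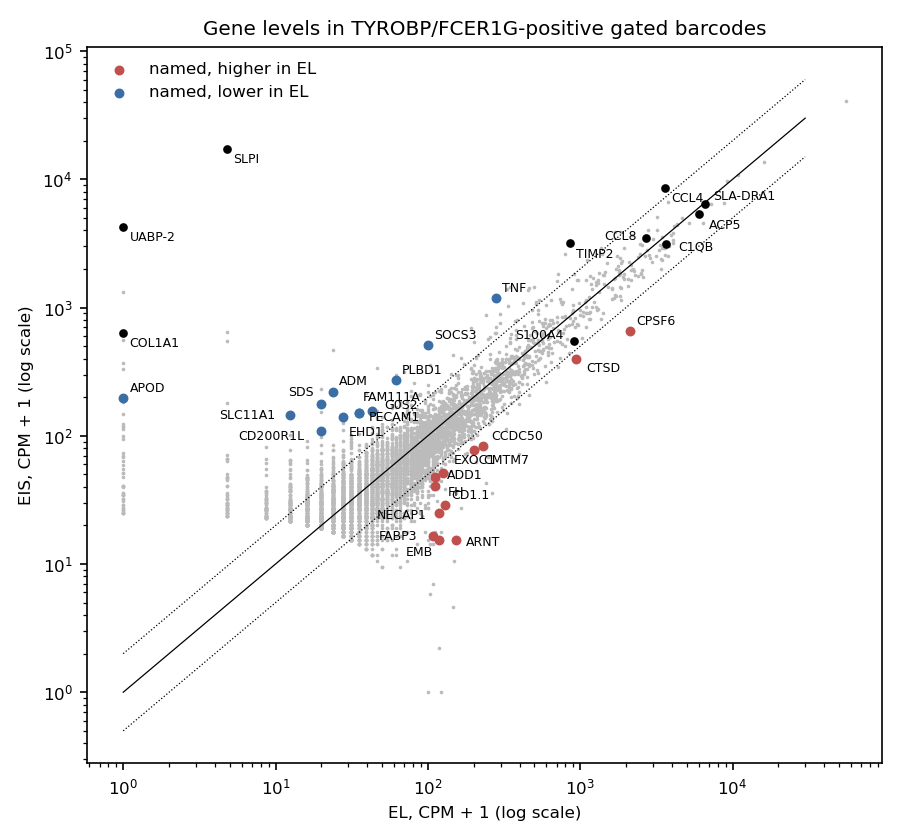
Levels of genes in adaptor-positive gated barcodes of EL (x axis, 59 barcodes) and EIS (y axis, 193 barcodes), as CPM plus 1 on log axes; the dotted lines mark a 2-fold difference, red and blue points are genes named by ratio as higher or lower in EL, and black points are further labelled genes. Most genes lie between the lines; CPSF6 and CTSD lie on the EL side, and TNF, SOCS3 and SLC11A1 on the EIS side.

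Several inflammatory mediators made by activated macrophages were lower in EL, TNF having the lowest ratio of its list. TNF, a cytokine of the acute response, stood at 277 CPM in EL (24 of 59 barcodes), against 1181 in EIS (120 of 193), a ratio of 0.235 (0.182 to 0.298). Per 10000 UMIs of a barcode, TNF ran from 0 over a median of 0 to 103.3 in EL and from 0 over 4.00 to 120.3 in EIS, so the ranges overlapped. TNF was also lower in EL among C1q-rich barcodes (346 CPM in EL, 1339 in EIS; ratio 0.258, 0.187 to 0.349) and among the others (207 CPM in EL, 1005 in EIS; ratio 0.206, 0.134 to 0.304). Of 11 genes counted in the list of inflammatory cytokines, 0 were at least 2-fold higher and 3 at least 2-fold lower in EL: TNF, the death ligand TNFSF10 and PTGS2, an inducible prostaglandin enzyme at 22.8 CPM in EL and 48.2 in EIS, whose interval (0.164 to 1.12) included 1. IL1B, the interleukin released by inflammasomes, stood at 345 CPM in EL compared with 577 in EIS, a ratio of 0.599 (0.473 to 0.751). In C1q-rich barcodes its levels were 527 CPM in EL, against 503 in EIS, and in the others, 19 in EL and 89 in EIS, 161 and 659 CPM. The C1q limit was chosen after the data were seen. IL1B was a leading gene of EL group 1 and EIS group 1, made from the same barcodes, so these levels are a description. IL1A, IL18 and IL1RN had ratios between 1.03 and 1.26 with intervals that included 1.

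Chemokines had a median log2 ratio of -0.85 over 9 genes, with 0 higher and 3 lower. CCL4, which draws lymphocytes and monocytes, stood at 3613 CPM in EL (38 of 59) and 8623 in EIS (153 of 193), a ratio of 0.419 (0.391 to 0.448). CCL14 stood at 11.4 CPM in EL compared with 77.1 in EIS. CXCL2, a neutrophil chemoattractant, stood at 1104 CPM in EL, against 2343 in EIS, a ratio of 0.471 (0.415 to 0.533). Its ratio was 1.02 (0.889 to 1.18) without EIS group 2, where CXCL2 stood at 6777 CPM; CXCL2 is a leading gene of that group, which was made from the same barcodes, so leaving it out of EIS alone had to raise the ratio and is a description. CCL8, a monocyte chemoattractant and a leading gene of the C1q-rich groups, stood at 2695 CPM in EL and 3483 in EIS. At least 3 UMIs of CCL8 were present in 42.4% of EL barcodes (29.6 to 55.9) and 29.0% of EIS barcodes (22.7 to 36.0), so its share and its level pointed in opposite directions. CCL2, CCL5 and CXCL16 had intervals that included 1, and CXCL10, an interferon-induced chemokine, had a ratio of 0.528 (0.369 to 0.737).

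The immediate early genes, which cells induce within minutes of a stimulus and also during enzymatic dissociation, were lower in EL as a list: 0 of 13 were at least 2-fold higher, 4 at least 2-fold lower, and the median log2 ratio was -0.71. EGR1, a zinc-finger factor, stood at 334 CPM in EL (37 of 59) compared with 1023 in EIS (147 of 193), a ratio of 0.326 (0.259 to 0.407). ZFP36, which destabilises the mRNAs of TNF and other cytokines, stood at 1697 CPM in EL, against 3904 in EIS, a ratio of 0.435 (0.393 to 0.480), with per-barcode medians of 13.1 in EL and 35.2 in EIS per 10000 UMIs. NR4A1, an orphan nuclear receptor, and IER2 had ratios of 0.397 and 0.478, and FOS, a subunit of AP-1, stood at 3184 CPM in EL and 5108 in EIS, a ratio of 0.623 (0.578 to 0.672). In all other kept barcodes, EGR1 stood at 1218 CPM in EL and 1547 in EIS, ZFP36 at 517 and 691, FOS at 3349 and 2227, and IER2 at 579 and 573 CPM in EL and EIS. DNAJB1, a heat shock co-chaperone, was the 1 gene of 9 in its list past 2-fold, where 8.55% of all genes counted were lower. It stood at 239 CPM in EL compared with 877 in EIS, whereas in the other kept barcodes it stood at 842 CPM in EL, against 557 in EIS. The time each tissue spent in digestion and transport was not tested.

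Myeloid transcription factors included 0 of 15 higher and 3 lower in EL, namely CEBPB, KLF2 and NR4A1. NR4A1 was also counted with the immediate early genes above. CEBPB, a factor of inflammatory macrophages, stood at 493 CPM in EL and 1435 in EIS, a ratio of 0.344 (0.285 to 0.412). KLF2, a restrainer of myeloid activation, stood at 452 CPM in EL compared with 1365 in EIS, a ratio of 0.331 (0.272 to 0.400), and of 0.646 (0.524 to 0.793) without EIS group 2. ZEB2 had a ratio of 0.510, and IRF8, a factor of dendritic cells and monocytes, one of 1.15 (0.887 to 1.47). SOCS3, the feedback inhibitor of STAT3 signalling, stood at 98.7 CPM in EL (18 of 59), against 507 in EIS (112 of 193), a ratio of 0.195 (0.126 to 0.289); in all other kept barcodes it stood at 19.5 CPM in EL and 209 in EIS.

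**Figure D5:**
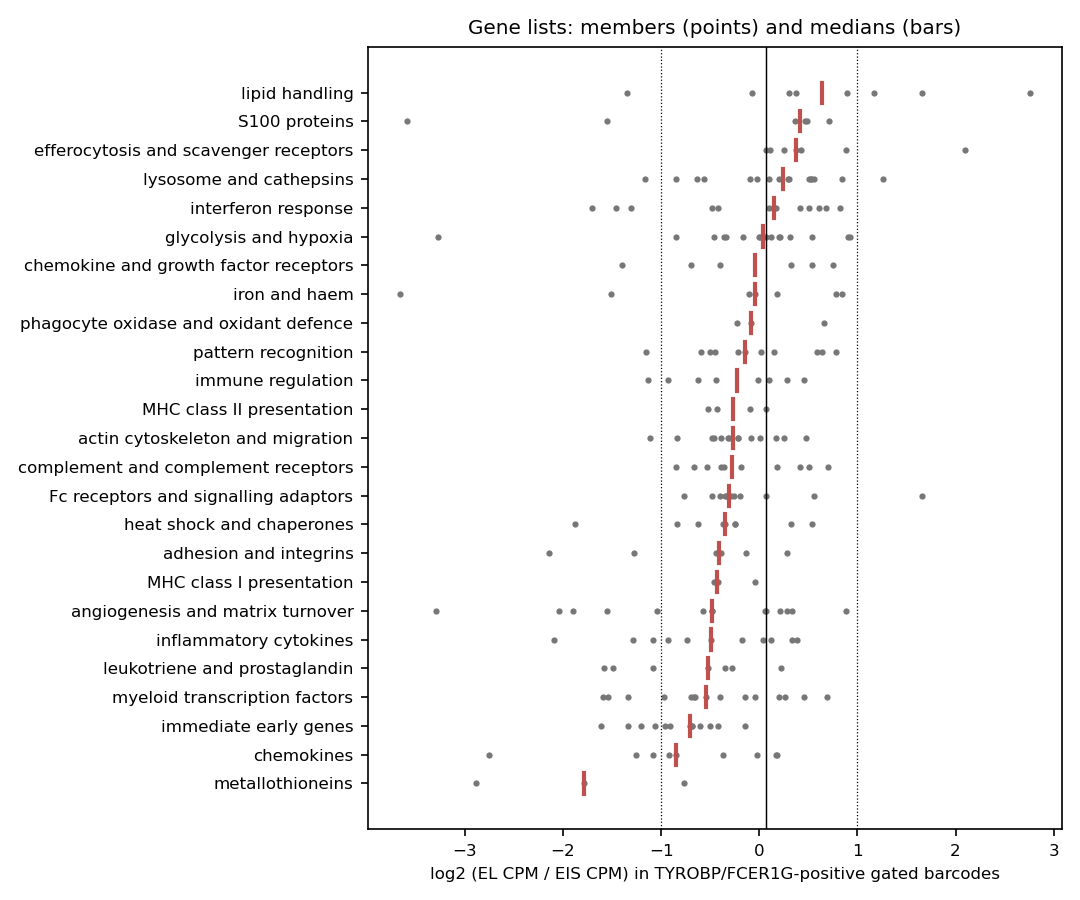
Log2 ratio of EL over EIS (adaptor-positive gated barcodes) for the members of each gene list, one point per gene with at least 20 UMIs; red bars are list medians and the black line is the median of all genes, 0.07. The chemokine median was -0.85, that of immediate early genes -0.71 and that of lipid handling 0.63.

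Antigen presentation, Fc receptor and complement genes stayed within 2-fold apart from TREM2, a lipid-sensing receptor counted with the Fc receptors and adaptors. None of 4 class II genes, 5 class I genes or 10 complement genes passed it. SLA-DMA and SLA-DMB, the chains that load peptide onto class II, had ratios of 0.742 (0.579 to 0.942) and 1.05 (0.838 to 1.30). TAP1, the peptide transporter of class I, stood at 273 CPM in EL compared with 377 in EIS. FCER1G stood at 1423 CPM in EL, against 1794 in EIS, and TYROBP at 1769 and 2114 CPM, levels that the adaptor limit fixes in part. C3, the central complement protein, stood at 1158 CPM in EL (32 of 59) and 816 in EIS (104 of 193), a ratio of 1.42 (1.23 to 1.63), and CFD, the protease of the alternative pathway, at 771 CPM in EL compared with 1111 in EIS, a ratio of 0.693 (0.593 to 0.808). C5AR1, the C5a receptor, had a ratio of 0.881 (0.630 to 1.21); among the C1q-rich barcodes it was 1.90 (1.31 to 2.75) and among the others 0.0627 (0.00749 to 0.233).

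Pattern recognition genes included 0 of 11 higher and 1 lower, TLR9, the receptor of unmethylated DNA, with 15.2 CPM in EL, against 33.7 in EIS and an interval that included 1. The share lower over all genes counted was 8.55%. NLRP3 and TLR4 had intervals that included 1. Of 14 interferon-response genes, 0 were higher and 3 lower. IFIT3, an antiviral tetratricopeptide protein, stood at 163 CPM in EL and 405 in EIS, a ratio of 0.403 (0.287 to 0.555), and IFIT2 and IFIT5 had ratios of 0.363 and 0.308. The interferon-induced GTPase MX1 stood at 300 CPM in EL and 267 in EIS, with an interval that included 1, and MX2 at 258 and 161 CPM, a ratio of 1.60 (1.18 to 2.16).

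Some genes of lipid and lysosome handling were higher in EL. Of 8 lipid genes, 3 were at least 2-fold higher and 1, SPP1, was at least 2-fold lower, with a log2 ratio of -1.35 that became 2.43 when 10% free RNA was removed. FABP5, a cytosolic fatty acid carrier, stood at 395 CPM in EL (30 of 59), against 176 in EIS (70 of 193), a ratio of 2.25 (1.73 to 2.91), and was higher in the C1q-rich barcodes (ratio 2.23) and in the others (2.65); its log2 ratio of 1.17 became 0.95 with TMM factors and 0.86 without EIS group 2, both under 2-fold. TREM2 stood at 45.6 CPM in EL, in 8 barcodes, and 14.4 CPM in EIS, in 6. FABP3, the heart-type carrier, stood at 106 CPM in EL and 15.7 in EIS, a ratio of 6.79 (3.4 to 14.3) that came down to 2.66 (1.05 to 6.58) without the 2 EL barcodes described below. PLIN2, a lipid droplet coat protein, had a ratio of 1.86 (1.24 to 2.74), and APOE one of 0.948 (0.831 to 1.08). CTSD, a lysosomal aspartic protease, was the 1 lysosomal gene of 16 at least 2-fold higher, at 941 CPM in EL (34 of 59) compared with 394 in EIS (115 of 193), a ratio of 2.39 (2.02 to 2.83). Its per-barcode median was 1.61 in EL and 2.11 in EIS per 10000 UMIs, so its higher sum came from part of the EL barcodes, mostly C1q-rich ones (1618 CPM in EL, 613 in EIS). CTSH had a ratio of 1.79, and NPC2, a cholesterol exporter of lysosomes, one of 1.44. Without the limit of 0.1% on the adaptor share, CTSD and FABP5 were lower in EL, with log2 ratios of -0.27 and -0.70; in all other kept barcodes CTSD stood at 127 CPM in EL and 938 in EIS, and FABP5 at 45.7 and 517 CPM.

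The single gene with the highest level among those at least 2-fold higher in EL by the naming rule was CPSF6, a subunit of the factor that cleaves and polyadenylates pre-mRNA. It stood at 2122 CPM in EL (40 of 59) compared with 650 in EIS (99 of 193), a ratio of 3.26 (2.89 to 3.68). Per 10000 UMIs it ran from 0 over a median of 6.43 to 250.0 in EL and from 0 over 1.1 to 61.6 in EIS. CPSF6 was 5.76 times higher in EL among the C1q-rich barcodes (4.98 to 6.66), with 3920 CPM in EL, against 681 in EIS, and lower in EL among the others, with 291 and 616 CPM. In all other kept barcodes it stood at 77.9 CPM in EL and 174 in EIS, so in both libraries it was higher in the adaptor-positive barcodes. FH, the fumarate hydratase of the citric acid cycle, EXOC1, a subunit of the exocyst, and ADD1, an adducin of the membrane skeleton, had ratios of 2.77, 2.48 and 2.34 from 29 to 33 EL UMIs each, and CMTM7 one of 2.61 (1.78 to 3.82), a log2 ratio of 1.38 that became -0.0550 after thinning to 1000 UMIs. STMN1, a microtubule destabiliser of dividing cells, stood at 323 CPM in EL compared with 112 in EIS, a ratio of 2.88 (2.12 to 3.91), and in all other kept barcodes at 1105 CPM in EL, against 181 in EIS. DERL3, of the endoplasmic reticulum degradation pathway, stood at 87.3 CPM in EL (12 of 59) and 24.1 in EIS (13 of 193), and GAS6, a bridging ligand of the efferocytosis receptors AXL and MERTK, at 72.1 CPM in EL compared with 16.9 in EIS, while AXL and MERTK had ratios of 1.19 and 1.08.

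Several genes high in the EL sums came from very few barcodes. Of the 1578 ACP5 UMIs in the 59 EL barcodes, 1164 lay in 1 barcode and 405 in another, and the next highest barcode held 2. ACP5, also called uteroferrin, is a tartrate-resistant acid phosphatase of uterine glands and of osteoclasts and some macrophages. It made up 11.4% of the first barcode's 10220 UMIs and 3.01% of the second's 13448. The first also held 55 UMIs of SPP1, 28 of the gelatinase MMP9, 36 of ARNT, 16 of NECAP1, 67 of TIMP2 and 36 of CTSH, with 14 of AIF1, 12 of TYROBP, and 0 of SLA-DRA1, C1QA, C1QB and S100A4. The second held 99 UMIs of S100A4, 19 of EMB, 12 of FABP3 and 12 of TYROBP, and also 0 of SLA-DRA1. The 2 barcodes thus had high ACP5 and no SLA-DRA1 in common, unlike 55 of the 59. Over all kept EL barcodes ACP5 summed to 2262 UMIs, so these 2 held most of it, whereas 8642 of the kept EIS barcodes held ACP5.

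Those 2 barcodes set the ratios of several named genes. They were chosen after the data were seen and left out of EL alone. Ratios of genes concentrated in them therefore had to fall, and the values without them are a description. ARNT, a partner of the hypoxia and dioxin receptors, stood at 152 CPM in EL, against 14.4 in EIS, a ratio of 10.5 (5.40 to 22.0), and at a ratio of 1.15 (0.271 to 3.81) without them. EMB, an escort of lactate transporters, had a ratio of 8.14 with them and 0.866 (0.157 to 3.21) without, and NECAP1, an endocytic adaptor-binding protein, 4.89 and 1.21 (0.433 to 2.98). SPP1, the secreted phosphoprotein osteopontin, stood at 296 CPM in EL (5 of 59) and 756 in EIS (131 of 193), a ratio of 0.392 (0.305 to 0.496), and 0.0551 (0.0263 to 0.102) without them; its log2 ratio of -1.35 turned to 2.43 with 10% free RNA removed and to 0.13 in the barcodes with little C1q, so it has no settled direction; over the other kept barcodes SPP1 stood at 1.19 CPM in EL compared with 7164 in EIS. MMP9 stood at 106 CPM in EL, all in the first barcode, and at 102 CPM in EIS, in 8 barcodes. Without the 2, 416 genes were at least 2-fold higher and 512 at least 2-fold lower. CCDC50, at 228 CPM in EL, against 81.9 in EIS, and with a log2 ratio of -0.28 in C1q-rich barcodes, was carried most by 2 further EL barcodes with 18 and 16 UMIs, which also held 43 and 41 UMIs of PLAC8, 12 and 8 of IRF8 and 2 and 6 of SPIB, a factor of plasmacytoid dendritic and B cells. PLAC8 and CCDC50 were also leading genes of EIS group 5. CD1.1 stood at 129 CPM in EL (6 of 59, with 17 of its 34 UMIs in 1 barcode) and 27.7 in EIS (11 of 193).

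On the EIS side, several of the genes furthest below in EL were leading genes of EIS group 2. SLC11A1 stood at 11.4 CPM in EL (2 of 59) compared with 144 in EIS (61 of 193), a ratio of 0.0788 (0.0160 to 0.236), and of 0.210 (0.0414 to 0.667) without EIS group 2. CD200R1L, a relative of the inhibitory CD200 receptor, stood at 19 CPM in EL, against 107 in EIS, and TBXAS1, thromboxane synthase, at 56.9 CPM in EL and 171 in EIS. PTGS1, the constitutive cyclooxygenase, had a ratio of 0.355 (0.148 to 0.739) with that group and 2.18 (0.733 to 6.37) without it. At least 3 UMIs of ADGRG1, SLC11A1, CD200R1L and TBXAS1 together were present in 8 of 59 EL barcodes, 13.6% (6.04 to 25), and 77 of 193 EIS barcodes, 39.9% (32.9 to 47.2). For ADGRE5, the leukocyte adhesion receptor CD97, the numbers were 13 of 59 in EL, 22.0%, and 88 of 193 in EIS, 45.6%. Since these genes were leading genes of a group made from the same barcodes, the shares and the ratios without the group are a description.

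Other genes lower in EL belonged to the S100A4-rich EIS group 1 or were spread more widely. SDS, serine dehydratase, stood at 19 CPM in EL compared with 176 in EIS, and G0S2, an inhibitor of fat lipolysis, at 41.8 CPM in EL, against 155 in EIS, with 9 of its 11 EL UMIs in 1 barcode and a log2 ratio of 1.72 in C1q-rich barcodes. ADM, a vasodilator peptide, stood at 22.8 CPM in EL (5 of 59) and 220 in EIS (64 of 193), a ratio of 0.103 (0.0374 to 0.229). PECAM1, an adhesion molecule of endothelium and leukocytes, stood at 34.2 CPM in EL compared with 151 in EIS, EHD1, of endocytic recycling, at 26.6 CPM in EL, against 140 in EIS, and FAM111A, a protease with antiviral activity, at 34.2 CPM in EL and 149 in EIS. PLBD1 stood at 60.7 CPM in EL compared with 272 in EIS. HMOX1, which degrades haem, had a ratio of 0.350 (0.191 to 0.598), while FTH1, the ferritin heavy chain, stood at 7242 CPM in EL, against 6368 in EIS. APOD, the first gene by size in this direction, was 0 in EL and 196 CPM in EIS, at least 17.2-fold lower against a floor of 3 UMIs over the EL set, and 99.4% of its EIS UMIs came from 1 barcode. TIMP2, a metalloproteinase inhibitor, stood at 858 CPM in EL and 3190 in EIS, but at 110 CPM in EL compared with 16931 in EIS in the other kept barcodes. The metallothioneins MT1A and MT1D, which bind zinc and copper, had ratios of 0.136 and 0.290. In EIS, 34% of the UMIs of MT1A and 62% of those of MT1D lay in 1 barcode each. The log2 ratio of MT1D was 0.63 in barcodes with little C1q. Both were leading genes of EIS group 8 (1 of 88 adaptor-positive).

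The remaining lists are described beside the shares over all genes counted, 8.55% at least 2-fold lower in EL and 6.77% at least 2-fold higher. A list with 1 member past 2-fold is not read as a result about that list. In the actin list 1 of 14 was lower, ARPC1B, an Arp2/3 subunit, at 512 CPM in EL, against 1107 in EIS. The glycolysis and hypoxia list had 1 of 16, ADM; GAPDH and ENO1 had ratios of 1.15 and 0.998. The angiogenesis and matrix list had 5 of 14 lower, namely TIMP2, THBS1 (0 in EL), EREG, MMP2 and MMP14, and 0 higher, while VEGFA stood at 110 CPM in EL and 95.1 in EIS. Of the 93 EIS UMIs of THBS1, 44 lay in 1 barcode, and THBS1 was a leading gene of EIS group 9 (0 of 50 adaptor-positive). TIMP2 was higher in the other kept EIS barcodes than in the adaptor-positive ones, as given above. The part of other cells and free RNA in this count was not tested. The S100 list had 2 of 6 lower, S100A1 and S100A12, the alarmin of neutrophils and monocytes with 3.8 CPM in EL compared with 45.8 in EIS; S100A10 and S100A11 had ratios of 1.40 and 1.29. The leukotriene and prostaglandin list had 3 of 7 lower, PTGS1, PTGS2 and TBXAS1. The interval of PTGS2 included 1, and PTGS1 and TBXAS1 were leading genes of EIS group 2. The adhesion list had 2 of 6 lower, PECAM1 and VCAM1; the log2 ratio of VCAM1 was -1.28, but 0.39 after thinning and 0.85 in barcodes with little C1q. The immune regulation list had 1 of 8 lower, VSIR, an inhibitory B7 relative, whose log2 ratio of -1.14 became 0.38 after thinning and 0.0411 in C1q-rich barcodes, and the chemokine and growth factor receptor list had 1 of 6 lower, CSF3R, the G-CSF receptor. None of 3 oxidant defence genes passed it.

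Compared within EIS with the barcodes that carried LYVE1, MRC1 or CD209, the gated ones had higher levels of SLA-DRA1 and IL1B and lower levels of DAB2 and SPP1. The comparison used 193 gated and 78 LYVE1-, MRC1- or CD209-positive barcodes, all adaptor-positive, at median depths of 3745 and 7205 UMIs; the receptors that divide them were the rule, and EL held 5 such barcodes, too few to compare. SLA-DRA1 stood at 6366 CPM in the gated barcodes and 1122 CPM in those with the receptors, a ratio of 5.67 (5.21 to 6.18), and CTSS at 1527 and 1446 CPM. IL1B stood at 577 CPM in the gated and 37.4 CPM in the receptor-bearing barcodes, a ratio of 15.4 (9.87 to 25.5), CXCL2 at 2343 and 295 CPM, C3 at 816 and 80.4 CPM, S100A4 at 551 and 69.2 CPM, and TNF at 1181 and 398 CPM. TNFSF9, the ligand of the T cell costimulator 4-1BB, stood at 300 CPM in the gated barcodes and 7.48 CPM in the receptor-bearing ones. In the other direction, DAB2, an endocytic adaptor, stood at 136 CPM in the gated and 3303 CPM in the receptor-bearing barcodes, IGF1, insulin-like growth factor 1, at 3.61 and 148 CPM, LGMN, a lysosomal protease, at 129 and 924 CPM, and CD14, the endotoxin co-receptor, at 119 and 641 CPM. The 6 of 14 resident macrophage genes with a row summed to 1306 CPM in the gated and 1201 CPM in the receptor-bearing barcodes. Most of the gated sum was APOE, with 1004 UMIs, so these sums do not compare the whole list. SPP1 stood at 756 CPM in the gated and 16312 CPM in the receptor-bearing barcodes. CCL8 differed little, at 3483 CPM in the gated and 4085 CPM in the receptor-bearing barcodes, and SLPI stood at 17288 and 22291 CPM. Genes of this comparison were chosen after their values were seen.

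Over all gated barcodes, the genes furthest apart included leading genes of groups with few adaptor-positive barcodes. Of 10940 genes, 2030 (18.6%) were at least 2-fold higher in EL and 1250 (11.4%) at least 2-fold lower, and 1237 higher and 1841 lower with TMM factors. Genes higher in EL were led by RPRML (245 UMIs in EL, 0 in EIS) and CYP26A1 (1276 in EL, 22 in EIS), leading genes of EL group 4, and included the ciliary gene TPPP3 (647 in EL, 226 in EIS). Those lower in EL were led by PLET1 (0 in EL, 24816 in EIS) and DPPA5 (0 in EL, 10973 in EIS), and included the pregnancy-associated glycoprotein PAG6 (0 in EL, 2506 in EIS) and CYP11A1 (0 in EL, 489 in EIS).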

How the data were processed

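Single-cell 3' RNA libraries of 2 endometria (1 EL, 1 EIS) were deposited as matrices of raw UMI counts per gene and barcode; per the file headers they were made by the authors with cellranger 6.1.0, per the submitters' processing notes with Cell Ranger 2.1.1. Neither genome build nor annotation is given in the sources used here. Among the 26881 features, 16128 had an identifier and no symbol, and 0 of these matched the gene name table; features of 1 symbol were summed.

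Barcodes with at least 500 UMIs and 300 genes were kept, and doublets were removed only as an alternative (933 EL and 601 EIS barcodes). Counts were summed over barcodes and scaled to CPM; ratios are EL over EIS with exact 95% conditional intervals. A difference counted from 2-fold among genes with at least 20 summed UMIs, a gene at 0 being set against 3 UMIs. Groups came from Leiden clustering (scanpy 1.11.5; 1500 variable genes, 15 components, 10 neighbours, resolution 0.8) of each library's gated barcodes. Scripts were checked on simulated counts.

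Members and lists were chosen with earlier results of these data known. By the naming rule, the text gives the 12 largest and the 12 smallest ratios among symbols of at least 100 CPM in the higher library (ribosomal, haemoglobin, immunoglobulin and T cell receptor genes left out), the 15 genes most above the other kept barcodes, and per list the 5 highest members and those past 2-fold; other genes were chosen after their values were seen. Some genes that this rule names are not reported here.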

Additional observations from a re-analysis of the deposited data

How the results depend on the processing

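No paired analysis was possible because each group is 1 library, and leaving out a library leaves no comparison. The EL over EIS share ratio of gated barcodes was 0.263 with a summed limit of 2 and 0.413 when barcodes with markers of other cells were left out. Counts of adaptor-positive genes at least 2-fold higher and lower were 158 and 341 with those barcodes left out. That setting kept 28 EL and 80 EIS adaptor-positive barcodes. The counts were 128 and 224 after thinning, 4502 and 965 with no UMI minimum, and 22 and 109 with at least 100 UMIs. With equal weight per barcode they were 713 and 817. The higher count was 235 with TMM factors, 762 without the adaptor share limit and 285 in C1q-rich barcodes. Over all gated barcodes the counts higher and lower were 263 and 380 without barcodes with other markers, 892 and 566 after thinning and 770 and 466 with at least 100 UMIs; the higher count was 1050 with a summed limit of 5, 1237 with TMM factors and 6036 with no minimum.

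For 88 named genes under all alternatives run, 1076 log2 values stayed within counting error, 304 moved beyond it and 23, of genes at least 2-fold apart, changed sign; the cause was not tested. Leaving out barcodes with other markers gave APOD 3.53, COL1A1 0.0719, COL1A2 0.21 and THBS1 0.36; these genes have 0 UMIs in EL, so the signs come from the floor of 3 UMIs over a smaller EL set and are no reversal. Thinning gave CMTM7 -0.0550, VCAM1 0.39 and VSIR 0.38. Removing 10% free RNA gave SPP1 2.43, and dropping the adaptor share limit gave CTSD -0.27 and FABP5 -0.70. Without EIS group 2, CXCL2 was 0.0333 and PTGS1 1.13; without the 2 EL barcodes richest in ACP5, EMB was -0.21. C1q-rich barcodes gave ARNT -1.45, CCDC50 -0.28, CXCL2 0.10, EMB -0.60, G0S2 1.72 and VSIR 0.0411, and the others CPSF6 -1.08, MT1D 0.63, SPP1 0.13 and VCAM1 0.85. For 25 list medians, 369 values moved by less than 0.5 on the log2 scale and 26 by more; 43 values, of 14 lists, changed sign, including interferon response and glycolysis and hypoxia with TMM factors. The settings on adaptors, equal weight, groups, C1q and the 2 barcodes were chosen after seeing the data. With 263474 EL UMIs, genes under about 100 CPM rest on few molecules.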
